A study of Chlamydomonas reinhardtii with 6 samples.

Results

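The chromosome 6 histone gene clusters of the green alga Chlamydomonas reinhardtii were described as 44 gene models out of the 17736 in the deposited count table. A gene model belonged to them when its identifier lay in 1 of 6 number ranges on chromosome 6 and when the length implied by its FPKM (counted reads scaled by gene length and library total) was under 1500 bases. The ranges were selected on the measured counts of these same libraries, among them which genes were near 0 in wild type and present in the mutant. The genotype difference of the members is therefore given as a description, and the fits over all genes serve to place it. RNA was sequenced from 3 biological replicates of wild type (WT) and 3 of a CMD1 knockout (cmd1 KO), in strain CC125, to find how loss of CMD1 changes gene expression. CMD1 belongs to the family of the animal TET enzymes, which act on methylated cytosine in DNA. Both genotypes were kept in Tris/acetate/phosphate medium at 25 °C in light of 20 µmol photons per square metre and second, and were sampled after transfer to Sueoka's high salt medium and 300 µE of light. How long the exposure lasted, what the mutation is and whether the mutant was 1 clone or several is not stated in the labels.

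Histones are the small basic proteins around which nuclear DNA is wound. Genes of the core histones are typically present in many near-identical copies, lie close together, and are transcribed mainly while DNA is being replicated. In animals the messages of such genes end in a hairpin instead of a poly(A) tail, which matters for kits that select poly(A); here a kit for total RNA was used. Chlamydomonas grows during the light phase and then divides by multiple fission, with DNA replication shortly before each division.

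Counted reads per library ranged from 38875025 to 47869886. The libraries of replicate 3 stood apart from the rest. On log2 CPM (counts scaled to a common library total), over the 10878 genes that averaged 1 FPKM or more, WT replicates 1 and 2 correlated at 0.988, cmd1 KO replicates 1 and 2 at 0.981, and both libraries of replicate 3 with each other at 0.955, whereas WT replicates 1 and 3 correlated at 0.791 and cmd1 KO replicates 1 and 3 at 0.697. These are correlations across genes, which are not independent replicates. The genotype labels could not be checked by the CMD1 message itself, since the identifiers carry no gene names. Each result below is given for replicates 1 and 2 and for replicate 3.

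The 6 ranges lay between 2050540 and 3272432 on chromosome 6 (assembly v5.5) and held 67 gene models, of which 44 were members. Cluster 1 (Cre06.g264600 to Cre06.g265450) ran from 2050540 to 2116825 and held 12 members. Cluster 2 (Cre06.g267900 to Cre06.g268450), from 2390694 to 2424364, held 8. Cluster 3 (Cre06.g271200 to Cre06.g271400), from 2800482 to 2814850, held 4. Cluster 4 (Cre06.g273850 to Cre06.g274400), from 3022319 to 3051705, held 8. Cluster 5 (Cre06.g275600 to Cre06.g275900), from 3177850 to 3193790, held 4. Cluster 6 (Cre06.g276500 to Cre06.g276950), from 3250475 to 3272432, held 8. Of the other 23 gene models, 19 were 1500 bases or longer. The remaining 4, Cre06.g264700, Cre06.g265300, Cre06.g273950 and Cre06.g275900, had no count in any library, so that no length could be computed for them. The spans of Cre06.g273950 and Cre06.g275900, 1066 and 1446 bases, were themselves below the limit.

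Neither the table nor the gene reference names the histone type of a member, and the label was not checked by sequence. What could be checked was structure. The implied length came within 1 base of the whole genomic span in 40 of the 44 members (90.9%), as in a gene model of a single exon. Among all 17210 gene models with a count and a position this held for 892 (5.18%), and among the 2943 models under 1500 bases outside the members for 440 (15.0%). The 4 members with a shorter implied length than span were Cre06.g265000, Cre06.g271376, Cre06.g273850 and Cre06.g276750. Member lengths ran from 431 to 1435 bases with a median of 865, against 2608 over all gene models. In 27 cases a member was followed directly by another, at a median distance of 130 bases (range 5 to 662). Closeness as such was common in this genome: all 44 members lay within 190 bases of some annotated neighbour, and 83.6% of all models lay within 200 bases of one. Copies of near-identical sequence can share reads, and how the authors assigned such reads is not stated in the labels or headers. The value of a single member is uncertain for that reason, and so is the sum over a cluster if copies in different clusters share reads. Which members are such copies was not checked.

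The members were close to absent in all WT libraries and in cmd1 KO replicate 3, and present at low levels in cmd1 KO replicates 1 and 2. Summed over all members, WT replicates 1, 2 and 3 held 110, 110 and 81 counts. The cmd1 KO libraries, in the same order, held 1891, 1045 and 50. In CPM by library size the sums were 2.44, 2.66 and 2.07 in WT and 39.5, 26.2 and 1.29 in cmd1 KO. The genotypes therefore overlapped, because cmd1 KO replicate 3 was the lowest of the 6 libraries while the other 2 mutant libraries were far above all WT libraries. The group means were 2.39 ± 0.298 CPM (SD, n = 3) in WT and 22.3 ± 19.4 CPM (SD, n = 3) in cmd1 KO. Within replicate 1 the summed level was 16.2 times that of WT (95% exact interval 13.4 to 19.8), within replicate 2 it was 9.85 times (8.09 to 12.1), and within replicate 3 it was 0.620 times (0.427 to 0.893). These intervals are conditional binomial ones on the counts. They cover counting error only, not the spread between cultures. In a bulk culture, fewer cells expressing a gene and less RNA per cell cannot be told apart.

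**Figure D1:**
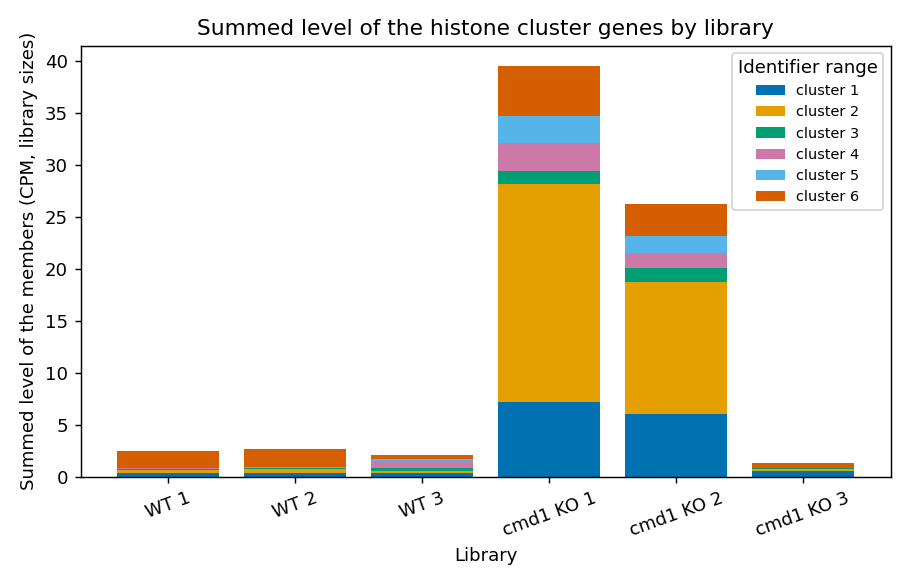
Summed level of the 44 members in each library, in CPM by library size, with bars stacked by the 6 clusters. cmd1 KO replicates 1 and 2 reach 39.5 and 26.2 CPM, while the 3 WT libraries and cmd1 KO replicate 3 lie between 1.29 and 2.66 CPM.

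The same contrast showed in how many members had reads at all. At least 10 counts were reached by 1, 2 and 2 members in WT replicates 1, 2 and 3, by 33 and 26 in cmd1 KO replicates 1 and 2, and by 1 in cmd1 KO replicate 3. Over all gene models the shares with at least 10 counts ran the other way, at 86.7%, 86.9% and 87.6% in WT and 82%, 79.2% and 83.9% in cmd1 KO. Members without a count numbered 27, 27 and 21 in WT, 1 and 2 in cmd1 KO replicates 1 and 2, and 27 in cmd1 KO replicate 3. In 11 members all 3 WT libraries were at 0, and in 7 of these cmd1 KO replicate 3 was at 0 too. A count of 0 allows up to 3 counts, which is 0.0627 to 0.0772 CPM depending on the library. By CPM, both cmd1 KO replicates 1 and 2 lay above every WT library in 37 of the 44 members, as in 5.12% of all gene models, and above every other library including cmd1 KO replicate 3 in 36, as in 4.72%. All 3 cmd1 KO libraries lay above all 3 WT libraries in 9 members, against 1.04% of all gene models, and below them in 0 members, against 30.4%. These numbers of members describe values on which the ranges were drawn and are no test of them.

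**Figure D2:**
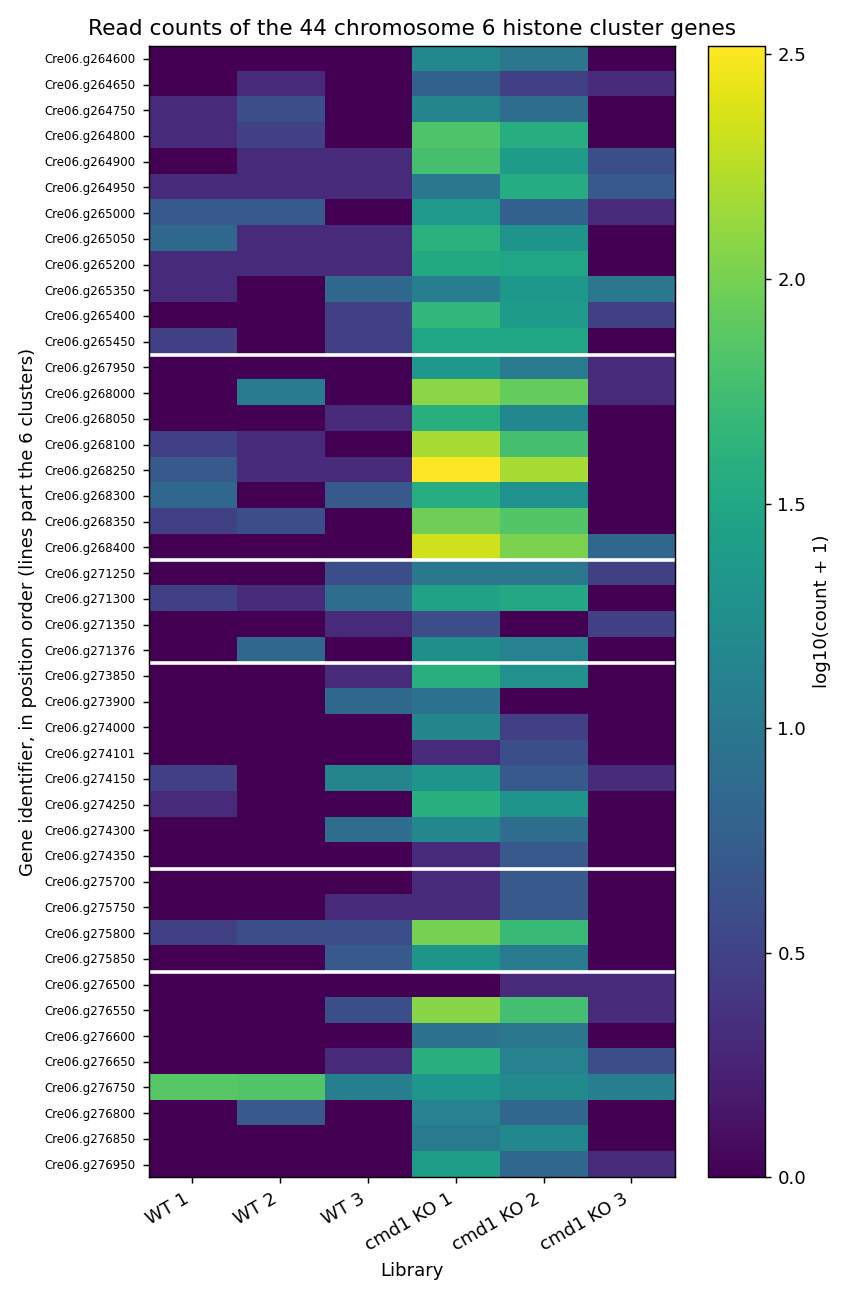
Read counts of the 44 members (rows, in position order, white lines between the 6 clusters) in the 6 libraries (columns), coloured as log10(count + 1). The columns of cmd1 KO replicates 1 and 2 are bright in most rows, with 33 and 26 members at 10 counts or more. The other 4 columns are darker, and brightest in the row of Cre06.g276750, with 72 and 67 counts in WT replicates 1 and 2. No other member exceeds 13 counts in those 4 columns.

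Per length, the members in cmd1 KO replicates 1 and 2 stood near the level of a typical gene of those libraries. Their median was 0.536 and 0.404 FPKM there, against medians of 0.525 and 0.491 FPKM over all gene models and 2.49 and 2.51 FPKM over gene models under 1500 bases. In WT replicates 1, 2 and 3 the members' median was 0, 0 and 0.0216 FPKM, against 1.86, 1.95 and 2.53 FPKM over all gene models. In cmd1 KO replicate 3 it was 0 against 1.76 FPKM. The rise of the members thus took place in libraries whose median gene held fewer reads than in WT. The median count over all gene models was 79 and 60 in cmd1 KO replicates 1 and 2, and 263 and 250 in WT replicates 1 and 2. The part of this shift in the members' result was not tested.

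Cluster 2 held the members with the most reads. Cre06.g268250, with an implied length of 815 bases, had 4, 1 and 1 counts in WT replicates 1, 2 and 3 and 329, 153 and 0 in cmd1 KO. Only cmd1 KO replicates 1 and 2 were high, and cmd1 KO replicate 3 was at or below every WT library. Within replicates 1 and 2 the log2 difference was 7.93 (SE 0.45), with an adjusted p of 7.93e-13 in edgeR's quasi-likelihood test over all genes with a count. It was 9.03 without WT replicate 1 and 7.32 without WT replicate 2. Cre06.g268400, the shortest member at 431 bases, had no count in WT and 215, 103 and 6 counts in cmd1 KO. It was the one member of this cluster with more than 1 count in cmd1 KO replicate 3, and by library size its pooled level in cmd1 KO replicates 1 and 2 was at least 104-fold higher than in WT replicates 1 and 2, taking 3 counts over both WT libraries as the floor. Its FPKM was 10.4, 5.997 and 0.358 in cmd1 KO replicates 1, 2 and 3, the highest per length among the members. Cre06.g268100 had 2, 1 and 0 counts in WT and 154, 58 and 0 in cmd1 KO. Pooled over replicates 1 and 2 this was 69.6 times the WT level by library size (95% exact interval 23.5 to 340).

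Cre06.g268000 was the one member of cluster 2 with a WT library at 10 counts, with 0, 10 and 0 in WT and 119, 82 and 1 in cmd1 KO. Its log2 difference within replicates 1 and 2 was 5.74 (SE 0.58, adjusted p 1.12e-08 in edgeR). That size rests on WT replicate 2, being 10.34 without it and 4.72 without WT replicate 1. Cre06.g268350 had 2, 3 and 0 counts in WT and 93, 69 and 0 in cmd1 KO, a log2 difference of 6.39 with an SE of 0.56 (edgeR, adjusted p 1.11e-09). The other 3 members of the cluster, Cre06.g267950, Cre06.g268050 and Cre06.g268300, had 21 to 38 counts in cmd1 KO replicate 1 and 10 to 18 in replicate 2, and 0 to 6 counts in every other library. Over the whole cluster the counts summed to 14, 15 and 6 in WT and to 1005, 507 and 8 in cmd1 KO. That is 51.4 times the WT level in replicates 1 and 2 by library size (95% exact interval 35.6 to 76.9) and 1.34 times in replicate 3 (0.408 to 4.69).

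Cluster 1 held more members at lower levels. Cre06.g264800 led it with 1, 2 and 0 counts in WT and 66, 36 and 0 in cmd1 KO, 33.5 times the WT level in replicates 1 and 2 by library size (95% exact interval 11.1 to 165). Cre06.g264750, at 1435 bases the member just under the length limit, had 1, 3 and 0 counts in WT and 13, 7 and 0 in cmd1 KO. In this member the groups stood apart less clearly, and the edgeR call within replicates 1 and 2 (adjusted p 0.00797) was lost with library sizes alone and without WT replicate 1. In Cre06.g265350 all libraries but WT replicate 2 held reads, with 1, 0 and 6 counts in WT and 11, 21 and 9 in cmd1 KO, so that cmd1 KO replicate 3 was above WT replicate 3. The cluster summed to 17, 14 and 14 counts in WT and to 346, 240 and 20 in cmd1 KO. This was 18.6 times the WT level in replicates 1 and 2 (95% exact interval 13.0 to 27.7) and 1.44 times in replicate 3 (0.690 to 3.07).

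Clusters 3, 4 and 5 had fewer reads, and in replicate 3 those reads were mostly on the WT side. In cluster 3 the sums were 2, 7 and 11 counts in WT and 56, 53 and 4 in cmd1 KO, 11.9 times the WT level in replicates 1 and 2 by library size (95% exact interval 6.06 to 26.8). Cluster 4 had 3, 0 and 27 counts in WT and 133, 57 and 1 in cmd1 KO, 62.4 times the WT level in replicates 1 and 2 (21.0 to 305) and 0.0372 times in replicate 3 (0.000909 to 0.226). WT replicate 3 was thus the highest WT library here, and cmd1 KO replicate 3 the lowest mutant one. Most of the 27 counts in WT replicate 3 came from Cre06.g274150 with 13, Cre06.g274300 with 7 and Cre06.g273900 with 6. In cluster 5 the sums were 2, 3 and 8 counts in WT and 121, 68 and 0 in cmd1 KO, 37.2 times the WT level in replicates 1 and 2 (15.7 to 116). Cre06.g275800 held most of them, with 2, 3 and 3 counts in WT and 100, 50 and 0 in cmd1 KO, a log2 difference of 6.25 within replicates 1 and 2 with an SE of 0.60 (edgeR, adjusted p 4.47e-09).

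Cluster 6 held the one member that was lower in cmd1 KO within replicates 1 and 2. Cre06.g276750 had 72, 67 and 11 counts in WT and 20, 15 and 11 in cmd1 KO, so that both libraries of replicate 3 were lowest and alike, and WT replicates 1 and 2 were highest. By library size its level in cmd1 KO replicates 1 and 2 was 0.248 times that of WT (95% exact interval 0.166 to 0.362). With TMM scaling the log2 difference was -0.52 (SE 0.48) and did not pass the edgeR test (adjusted p 0.376), whereas with library sizes alone it was -2.01 and passed. It was also 1 of the 4 members whose span of 1533 bases exceeded its implied length of 1034 bases. It held 72 of the 110 member counts in WT replicate 1 and 67 of the 110 in WT replicate 2. Without it, a step chosen after its values were seen, the remaining members summed to 38, 43 and 70 counts in WT and 1871, 1030 and 39 in cmd1 KO. The ratio by library size then rose to 46.4 (33.7 to 65.7) in replicate 1 and to 24.8 (18.3 to 34.5) in replicate 2, and was 0.560 (0.368 to 0.840) in replicate 3.

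Of the other 7 members of cluster 6, 1 had far more counts than the rest. Cre06.g276550 had 0, 0 and 3 counts in WT and 118, 57 and 1 in cmd1 KO, at least 57.5-fold higher in cmd1 KO replicates 1 and 2 than in WT replicates 1 and 2 by library size against a floor of 3 counts over both WT libraries. Just over the length limit lay Cre06.g276900, no member at 1557 bases, with 0, 0 and 3 counts in WT and 292, 133 and 0 in cmd1 KO, values like those of Cre06.g276550 on the other side of the limit. The lowest member of the cluster was Cre06.g276500, with 1 count each in cmd1 KO replicates 2 and 3 and none elsewhere, for which no direction can be given at this depth.

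**Figure D3:**
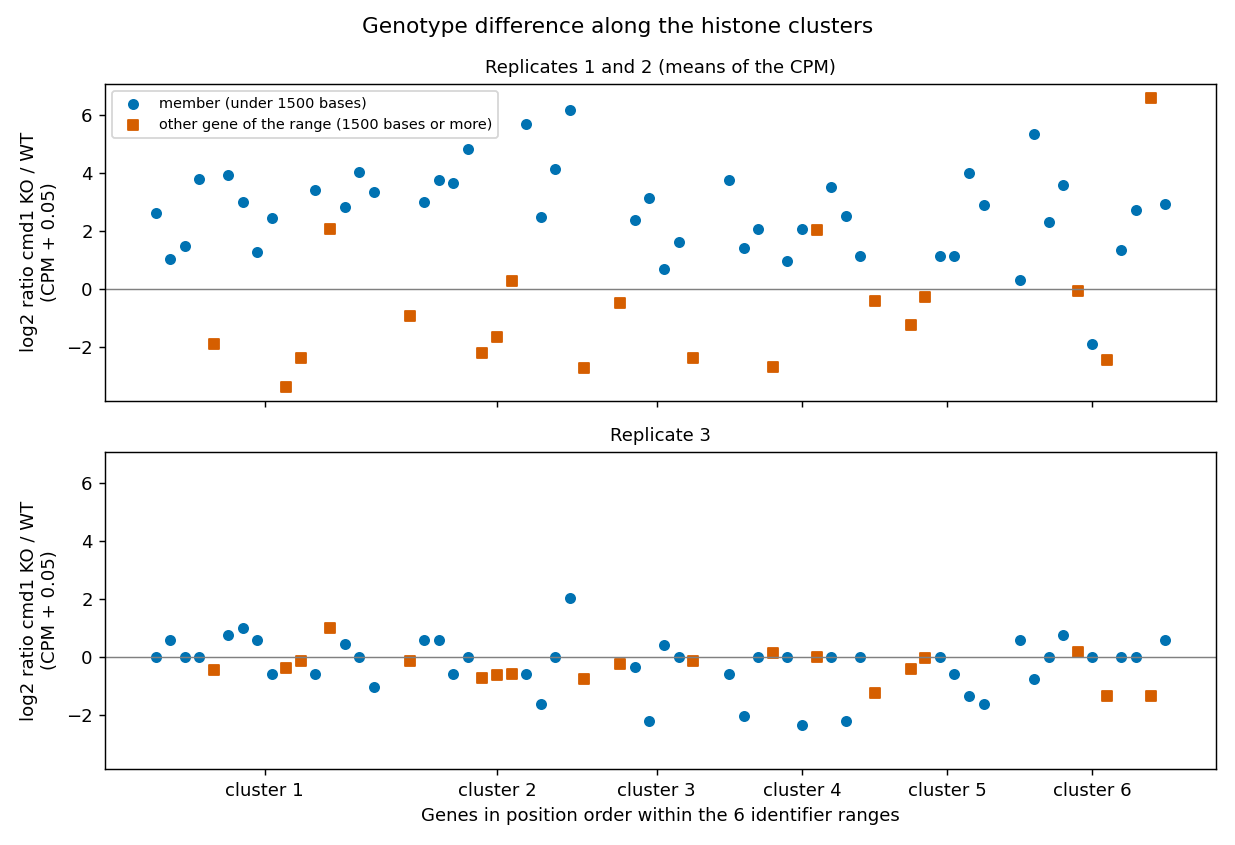
Log2 ratio of cmd1 KO to WT, on CPM by library size plus 0.05, for the gene models with a count in the 6 ranges in position order, for the mean of replicates 1 and 2 (top) and for replicate 3 (bottom). Members (circles) lie above 0 in replicates 1 and 2 in 43 of 44 cases, while in replicate 3 there are 14 above, 16 below and 14 at 0. Several of the ratios above 0 in replicate 3 rest on 1 count in cmd1 KO against 0 in WT, which gives 0.599. Cre06.g265400, with 2 counts in both libraries, lies at 0.0037. Squares mark the 19 gene models of 1500 bases or more.

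A test over all genes placed these values against the rest of the table. On the genes that averaged 1 FPKM or more, only 4 of the 44 members could be tested, Cre06.g268000, Cre06.g268100, Cre06.g268250 and Cre06.g268400, and each reached that mean only through cmd1 KO replicates 1 and 2, so their calls carry no weight of their own. Within replicates 1 and 2 all 4 rose in edgeR, as did 34.3% of the genes tested with them, and over all 6 libraries 0 passed, although all 4 were higher at an unadjusted p under 0.05, as were 9.14% of those genes. Over all 17213 genes with a count, every member could be tested. Within replicates 1 and 2, 36 of the 44 members rose and 0 fell by edgeR with TMM scaling (adjusted p under 0.05). The ranges were drawn on these same counts, so here and below the member calls describe the selection and are no independent test. Over all genes tested, 28.2% rose and 31.5% fell, together 59.7%, and among those under 1500 bases 54.4% rose. With library sizes alone 31 members rose and 1, Cre06.g276750, fell, against 1012 genes that rose and 12105 that fell over the whole table. The median fitted log2 difference of the members was 6.24 after TMM scaling and 4.86 by library sizes alone, against -0.11 and -1.60 over all genes. Fitted values of members at 0 in WT depend on the prior count. With the 20 members that had no count in WT replicates 1 and 2 set at their bound, the median ratio by library size over 42 members was 10.0. The other 2 had at most 3 counts in cmd1 KO replicates 1 and 2 and none in WT replicates 1 and 2. At an unadjusted p under 0.05, 40 of the 44 were higher, against 29.9% of all genes. That test compares 2 libraries with 2. The biological coefficient of variation was 0.152 there and 0.608 when all 6 libraries were fitted together.

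Members called as higher were found in all clusters. Called as higher within replicates 1 and 2 were 11 of 12 members in cluster 1, all 8 in cluster 2, 3 of 4 in cluster 3, 6 of 8 in cluster 4, 2 of 4 in cluster 5 and 6 of 8 in cluster 6. In the same fit 28.2% of all genes and 54.4% of those under 1500 bases rose, so the count in cluster 5 was near the share of short genes. Of the 8 members not called, Cre06.g276750 was discussed above. The other 7 were Cre06.g264650, Cre06.g271350, Cre06.g274101, Cre06.g274350, Cre06.g275700, Cre06.g275750 and Cre06.g276500, each with at most 5 counts in any library. Of these, Cre06.g264650, Cre06.g274350, Cre06.g275700 and Cre06.g275750 were higher in edgeR before adjustment, with an adjusted p of 0.0689 for the first and 0.0621 for each of the others. The last 3 passed without cmd1 KO replicate 1, with an edgeR adjusted p of 0.0282.

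Over all 6 libraries no member passed. edgeR called 0 of 44, as it called 0% of all genes, with a smallest adjusted p of 0.278 among the members. At an unadjusted p under 0.05, 28 members were higher and 0 lower in cmd1 KO, against 9.56% of all genes higher. With the replicate number as a block edgeR again called 0, and 22 members were higher at an unadjusted p under 0.05, as were 12.3% of all genes. DESeq2 called 20 of the 44 higher, against 4.14% of all genes, and gave no adjusted p for 7. Without cmd1 KO replicate 3, edgeR called 30 of the 44 higher, and 14.7% of all genes.

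In 14 of the 44 members the genotype difference in replicate 3 was unlike that in replicates 1 and 2 (edgeR interaction test, adjusted p under 0.05). In all 14 it was more negative in replicate 3, as in 18.4% of all genes tested. The ranges were drawn on these same counts, so that direction is partly built in and is no independent result. In both directions together the interaction passed in 39.6% of all genes. The smallest adjusted p was that of Cre06.g276550, 0.000218. On the genes that averaged 1 FPKM or more, 1 of the 4 members tested passed, Cre06.g268250, against 50.7% of those genes. A further 14 members had no count in either library of replicate 3, and for those the interaction cannot be judged. Nor can it be judged for Cre06.g267950, Cre06.g268400, Cre06.g276500 and Cre06.g276950, at 0 in every WT library, with an SE of 750 to 12281. The called share of the 44 is therefore not directly comparable with the shares over all genes. All 14 called members had counts in WT replicate 3, and 10 of them had none in cmd1 KO replicate 3. The test has 1 library per genotype in replicate 3 and takes their spread from replicates 1 and 2.

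The 2 mutant libraries with reads ranked the members alike. Across the 44 members, which are not independent and share libraries and possibly reads, the counts in cmd1 KO replicates 1 and 2 had a Spearman correlation of 0.830, while those in WT replicates 1 and 2 reached 0.478 on far fewer counts. The summed level was 1.51 times higher in cmd1 KO replicate 1 than in replicate 2 by library size (95% exact interval 1.40 to 1.63), and 31 of 44 members were higher in replicate 1. By cluster this ratio was 1.20 (1.02 to 1.42) in cluster 1, 1.65 (1.48 to 1.84) in cluster 2, 0.880 (0.593 to 1.31) in cluster 3 1.94 (1.41 to 2.70) in cluster 4, 1.48 (1.09 to 2.02) in cluster 5 and 1.60 (1.27 to 2.01) in cluster 6. The reads were unevenly shared among members, with 49.4% of the member counts in cmd1 KO replicate 1 and 44.5% in replicate 2 in the 5 highest of each library. A clear exception to the shared order was Cre06.g264950, with 9 counts in cmd1 KO replicate 1 and 35 in replicate 2.

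**Figure D4:**
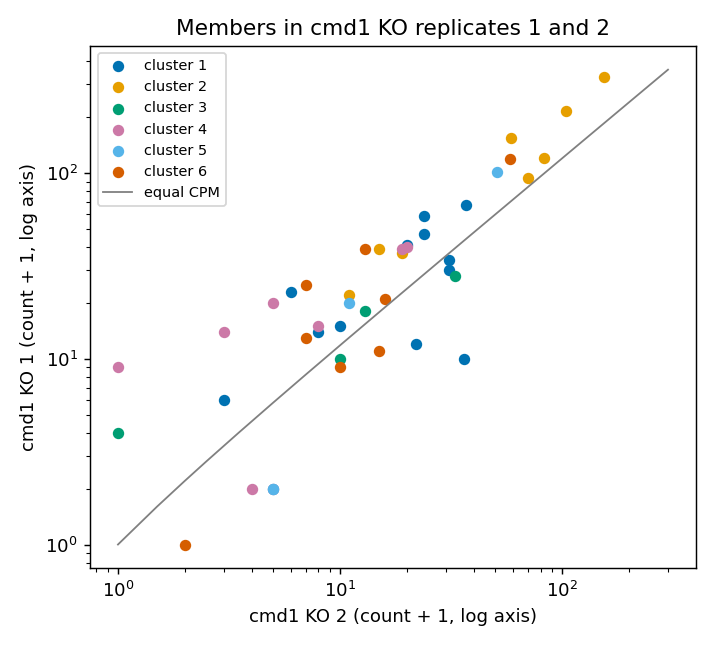
Counts of the 44 members in cmd1 KO replicate 1 against cmd1 KO replicate 2, as count + 1 on log axes, coloured by cluster, with a line at equal CPM. The points follow the line's slope over the whole range and 31 of 44 members have a higher CPM in replicate 1.

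The longer gene models interspersed with the members moved in both directions. The 19 models of 1500 bases or more summed to 178, 162 and 248 CPM in WT and to 83.8, 78.5 and 209 CPM in cmd1 KO replicates 1, 2 and 3. By library size that was 0.477 times the WT level in replicates 1 and 2 (95% exact interval 0.464 to 0.491), or 0.449 times without Cre06.g276900 (0.436 to 0.462), and 0.843 times in replicate 3 (0.819 to 0.869). The median over all genes on that scale was -1.60 in log2 within replicates 1 and 2, so that a lower sum by library size was shared with most of the table. Within replicates 1 and 2 edgeR called 8 of the 19 higher and 6 lower with TMM scaling, and of the 16 with more than 1 exon 5 higher and 6 lower. Over all genes in the same fit 28.2% rose and 31.5% fell, so the counts of the 16 lay near the shares of the whole table. The largest differences among them belonged to the 3 with a single exon, Cre06.g276900, Cre06.g265250 and Cre06.g274200, which had no count in WT replicates 1 and 2. Among the other 16, Cre06.g265100, between members of cluster 1, fell from 407 and 380 counts in WT replicates 1 and 2 to 42 and 32 in cmd1 KO (log2 difference -1.93, SE 0.27, adjusted p 1.25e-06 in edgeR). Cre06.g276700 in cluster 6, with 369 and 329 counts against 342 and 329, had a log2 difference of 1.43 with an SE of 0.19 (edgeR, adjusted p 7.68e-07) that rests on the scaling, its counts by library size being nearly level.

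Outside the ranges, short gene models of a single exon moved less far. The 440 such models under 1500 bases had a median log2 difference of 1.10 after TMM scaling and -0.02 by library sizes alone within replicates 1 and 2, and 41.1% of them rose with TMM scaling. The 2503 short models with more than 1 exon had medians of 0.98 and -0.46, and 56.2% rose. The members' medians of 6.24 and 4.86 lay above both. No test of this difference was made, since the ranges were drawn with the members' values known.

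A count pattern put the members among few other genes. At most 3 counts in every WT library and in cmd1 KO replicate 3, with at least 10 in both cmd1 KO replicates 1 and 2, were found in 38 gene models of the table (0.214%), and 15 of them were members. This describes the values by which the ranges were drawn and is no test of them. The 15 are 34.1% of the members and 39.5% of the 38. Of the 38, 21 lay on chromosome 6, which holds 8.98% of all gene models, and 29 were models of a single exon. Besides the 15 members, the chromosome 6 models were Cre06.g276900 within cluster 6 and 5 others outside the ranges. Among these, Cre06.g265500 directly follows cluster 1, with no count in WT or cmd1 KO replicate 3 and 21 and 13 counts in cmd1 KO replicates 1 and 2, and Cre06.g274750 and Cre06.g274900 lie between clusters 4 and 5. The opposite pattern, at most 3 counts in cmd1 KO replicates 1 and 2 and at least 10 in WT replicates 1 and 2, was met by 261 gene models (1.47%) and by 0 members. With WT replicate 3 and cmd1 KO replicate 3 left out of the condition, 78 gene models (0.44%) and 19 members met it.

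**Figure D5:**
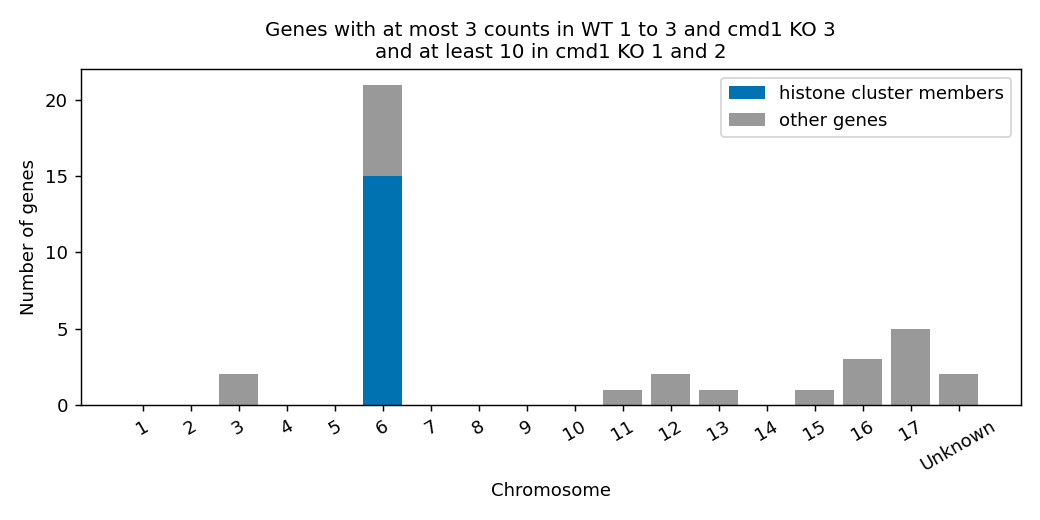
Number of gene models per chromosome with at most 3 counts in the 3 WT libraries and cmd1 KO replicate 3 and at least 10 in cmd1 KO replicates 1 and 2. Chromosome 6 holds 21 of the 38, of which 15 are members, and chromosome 17 holds 5.

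The authors' deposited table gave the members a direction opposite to that of most genes. There, in the authors' deposited table, a log2 fold change above 0 was listed for 43 of the 44 members, against 12.1% of all gene models, and the lower one was Cre06.g276750 at -1.41. The members' median log2 fold change was 3.68 in the authors' deposited table, that of all gene models -1.22. In the edgeR fits over all 6 libraries, 13.0% of all genes with a count were higher by library sizes alone and 47.8% with TMM scaling. In both, 43 of the 44 members were higher. The direction of most genes thus depended on the scaling, and the ranges were drawn on these same counts. An unadjusted p under 0.05 was listed in the authors' deposited table for 19 members, all higher, and for 273 higher gene models in all (1.54%). The smallest belonged to Cre06.g268400, with a p-value of 0.000584 and a log2 fold change of 9.66 in the authors' deposited table.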

How the data were processed

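RNA was sequenced from 3 WT and 3 cmd1 KO cultures. Groups and replicate numbers come from the sample titles. Trizol extraction and a stranded kit for total RNA were used, per the labels' protocols. FastQC 0.11.5, Cufflinks 2.0.0 and TopHat2 are named in the submitters' processing notes. Build, strand setting, counting tool and the handling of reads with several alignments: not given in the sources used here. Per the file headers, counts were deposited as whole reads per gene. The deposited FPKM equalled the count over a fixed whole-number length (100% of genes within 0.01 base) and the column total. The log2 fold change, log2 CPM, F statistic (a score) and unadjusted p-value of each gene are from the authors' deposited comparison, whose model no header states.

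Members were chosen by identifier and implied length. The members, lists and tests were chosen with earlier results of these data known. Genes that averaged 1 FPKM or more were tested with the quasi-likelihood functions of edgeR 4.0.16 (two-sided, TMM factors, Benjamini-Hochberg adjustment over all genes tested). Only 4 members reached it, so the same fits were also run on all 17213 genes with a count, a choice made after the data were seen. Standard errors are the log2 difference over the square root of F. DESeq2 1.42.0 and limma 3.58.1 were alternatives (R 4.3.3, Python 3.11.15). The edgeR fits were tested on simulated counts. The sample titles number the replicates 1 to 3 within each genotype and name no pairs. The deviations of libraries sharing a number from the group mean correlated at 0.530, 0.427 and 0.547, over the limit of 0.1 set for treating the numbers as pairs. Unlike-numbered libraries reached 0.479 (WT 2 and cmd1 KO 1) and 0.491 (WT 1 and cmd1 KO 2), so for numbers 1 and 2 the correlations do not show pairing. Intervals and floors (3 counts) cover counting error only, since PCR reads without molecular identifiers are not independent. RefSeq's gene table of assembly v5.5 held 17733 of the 17736 identifiers, with positions and 0 gene names. Histone classes, sequences and histone genes outside the 6 ranges were therefore not analysed here. Members were named by a rule on abundance within length classes, size of difference, near-0 levels in WT and the length limit, and any other named gene was chosen after its values were seen. All per-sample columns were used (0 left out).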

Additional observations from a re-analysis of the deposited data

Results flagged for a closer look

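The genotype difference was not the same in all replicates. In 14 of the 44 histone cluster members it differed between replicate 3 and replicates 1 and 2 by the edgeR interaction test. All 14 were more negative in replicate 3, as in 18.4% of all genes tested. The ranges were drawn on these same counts, so that direction is partly built in and is no independent result. In both directions together the interaction passed in 39.6% of all genes, so that replicate 3 stood apart in the whole table. A further 14 members had no count in either library of replicate 3 and could not be judged. Nor could Cre06.g267950, Cre06.g268400, Cre06.g276500 and Cre06.g276950, at 0 in every WT library. The called share of the 44 is therefore not directly comparable with the shares over all genes. Whether the number of called members is particular to the 44 was not tested. Among the members named by rule, the interaction passed in Cre06.g276550 (adjusted p 0.000218 in edgeR, higher in cmd1 KO in 2 of 3 replicates), Cre06.g275800 (adjusted p 0.00104, higher in 2 of 3) and Cre06.g268250 (adjusted p 0.0148, higher in 2 of 3). Replicate 3 has 1 library per genotype, and what set it apart was not tested.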

How the results depend on the processing

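The 4 members on genes of at least 1 FPKM passed that filter only through cmd1 KO replicates 1 and 2, so their calls in any setting carry no weight of their own. Over all 6 libraries the 0 member calls became 4 of 4 tested with DESeq2 on genes of at least 1 FPKM and 20 of 44 on all genes with a count. There 3.79% and 4.14% of all genes tested were called higher. Leaving out 1 library gave 0 to 4 and 0 to 30 calls, the highest without cmd1 KO replicate 3, when 18.1% and 14.7% of all genes were called higher too. Within replicates 1 and 2 the 4 calls became 36 without the FPKM filter, and for the interaction 1 became 14, in both because 44 and not 4 members were tested. On all genes with a count, the alternatives within replicates 1 and 2 gave 31 to 36 calls, with 5.88% (library sizes alone) to 27.97% of all genes higher, and for the interaction 10 to 14, with 6.19% to 19.8% of all genes in the members' direction. With the replicate number as a block the calls were 0 over all 6 libraries and, within replicates 1 and 2, 4 of 4 and 35 of 44, with 33.8% and 27.2% of all genes higher. It changed no other call by over 1.5 times. The mean summed level of 2.39 CPM in WT and 22.3 in cmd1 KO became 4.01 and 58.3 CPM when the 50 most abundant other genes were left out of the total, and 199 and 146 with all gene models of the ranges, which reversed the order. In WT it was 1.225 CPM without Cre06.g276750. The cmd1 KO mean was 13.8 CPM without cmd1 KO replicate 1 and 32.9 without cmd1 KO replicate 3. For the single members named, 0 alternatives reversed a called direction. On simulated counts of 17213 genes, edgeR recovered 98.5% of 4-fold changes within replicates 1 and 2, 82.5% for the interaction and 0% over all 6 libraries, where it recovered 93.5% of 16-fold changes. The changed genes were drawn from those averaging at least 10 counts. All genes were given the same variation, and replicate 3 was not set apart. These shares therefore do not hold for members with fewer counts. Depth limits most members in WT, where 30 of 44 held at most 3 counts in every library. Histone-like genes outside the ranges could not be sought, since no protein table or annotation was used here.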

Other observations

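Of the 23 gene models with the members' count pattern that were no members, 5 lay on chromosome 17 between 1696305 and 2226916, all of a single exon and under 1500 bases, among them Cre17.g708600 with no count in WT or cmd1 KO replicate 3 and 33 and 26 counts in cmd1 KO replicates 1 and 2. Among short models outside the ranges, 11 of 440 with a single exon (2.5%) met the pattern and 1 of 2503 with more than 1 exon. The most abundant was Cre21.g752647, on an unplaced sequence, with 2, 1 and 1 counts in WT and 3800, 3602 and 1 in cmd1 KO replicates 1, 2 and 3. These genes were chosen after their values were seen, and neither the table nor the gene reference gives them a name.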
